A study of Mus musculus with 85 samples.

Results

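MiR-1 and miR-133, the miRNAs of striated muscle, were described here through 5 rows of the count table, mmu-miR-1a-3p, mmu-miR-1b-5p, mmu-miR-133a-3p, mmu-miR-133a-5p and mmu-miR-133b-3p. They were chosen by name from the 1977 mature miRNAs listed, of which 548 had at least 1 count, and all 5 members had counts. The hearts came from female mice of HMDP strains, an inbred mouse panel, with 85 strains named in the title of the series and 1 library for each of the 85 hearts. All mice were 16 weeks old, and 8 weeks of chow had preceded 8 weeks of HF/HS feeding, a diet rich in fat and sucrose. Every library belonged to this 1 group, so the data held no other diet or sex to compare with. The hearts differ in strain, but the strain of each library was not used here, and strain, animal and library cannot be told apart.

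MiRNAs are short RNAs cut from a hairpin precursor, whose 5p and 3p arms can each yield a mature strand that guides repression of matching mRNAs. MiR-1 and miR-133a are made from shared primary transcripts in heart and skeletal muscle, and miR-133b is made beside miR-206, which is known from skeletal muscle. MiR-1 is known for driving muscle differentiation, and miR-133 for restraining serum response factor and growth of the muscle cell. In bulk heart RNA, fewer cells of a type and less RNA per cell cannot be told apart.

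One member, mmu-miR-133b-3p, had a sequence in the RefSeq miRNA table used here, with coordinates in build GRCm38.p6. Its mature strand is shown with the arm of the same hairpin that had no counts and with a miR-1a 5p strand, because the 2 arms of these precursors held very unequal counts. Capitals in the mature strands mark the seed, bases 2 to 8, and capitals in the 119-base hairpin mark the 3p strand. No other mature miRNA with a row in the count table and an entry in the RefSeq table carried the seed of mmu-miR-133b-3p. The other members had no entry there, so mmu-miR-133a-3p was not among those compared and the seed may not be unique.
mmu-miR-133b-3p: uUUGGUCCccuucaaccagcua
mmu-miR-133b-5p: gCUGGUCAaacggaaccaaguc
mmu-miR-1a-1-5p: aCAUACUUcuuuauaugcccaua
Mir133b hairpin: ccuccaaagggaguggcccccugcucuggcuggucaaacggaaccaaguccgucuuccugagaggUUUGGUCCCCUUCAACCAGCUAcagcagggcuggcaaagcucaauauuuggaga

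In build GRCm38, Mir133b lies at chr1:20682769-20682887 on the plus strand, 3686 bases after Mir206 (chr1:20679010-20679082, plus strand). Both lie in exons of the lincRNA Gm28653. On chromosome 2, Mir1a-1 (chr2:180389048-180389124, plus strand) is followed after 9254 bases by Mir133a-2 (chr2:180398379-180398482, plus strand), and no other annotated gene overlaps either.

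The second copies lie on chromosome 18, where Mir1a-2 (chr18:10785481-10785552) and Mir133a-1 (chr18:10782909-10782976), both on the minus strand, are 2504 bases apart in introns of their host gene Mir133a-1hg, and in an intron of Mib1 on the opposite strand. Mir1b (chr18:10785446-10785567, plus strand) covers all 72 bases of Mir1a-2 on the opposite strand. The strand setting of the counting is not given in the sources used here, so counts in the mmu-miR-1b-5p row and reads from mmu-miR-1a-3p on the other strand cannot be told apart. MiR-1a-3p and miR-133a-3p each have 2 precursor loci, and the miR-133a and miR-133b strands are near-identical, so the split between such rows is uncertain.

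The median library held 12248 counts (range 1457 to 30202), and a count of 3, the limit set for absence, was 0.0245% of a library of median depth. No pair of libraries agreed within sampling noise (3570 pairs were compared, with a chi-square of at least 1.496 per degree of freedom). The libraries fell into 2 sets, rebuilt here from the 47 non-member miRNAs that passed the filter on low counts. The first principal component of these miRNAs held 74.7% of their variance and the second held 3.899%. Set A had 58 libraries and set B had 27, numbered 1 to 10, 15 to 18, 20, 21 and 49 to 59, so that the sets formed 8 runs by library number. Library 14, with 1457 counts, had the highest score of set A at 0.86, against 2.003 for the lowest of set B. The sets were defined from the data and are not groups of the study, and since the libraries clustered, each relation is given within a set.

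The 5 members held 44.04% of all counts pooled over the hearts. Their summed share was lowest at 23.4% in library 18, had a median of 44.5% and was highest at 60.1% in library 46. In set A the median was 46.2% (range 37.9 to 60.1, SD 3.52, n = 58), and in set B it was 35.6% (range 23.4 to 47.02, SD 5.16, n = 27). The ranges overlapped, and the lower sum in set B held a lower share of miR-1 rows and a higher share of miR-133a-3p, given next.

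The miR-1a guide strand, mmu-miR-1a-3p, was the second most counted row, with 202280 counts or 17.7% of the total. Its share ran from 4.49% in library 18 (95% Wilson interval 4.07 to 4.95) over a median of 17.8% to 24.7% in library 46 (24.1 to 25.3). The set medians were 18.9% in A (range 15.002 to 24.7) and 13.6% in B (range 4.49 to 18.3). The sets overlapped, and the lowest value of A lay above the median of B.

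The row of mmu-miR-1b-5p, named for a miRNA annotated on the strand opposite miR-1a, held the most counts of all, 251291. Its share was lowest at 4.33% in library 18, had a median of 23.3% and was highest at 33.6% in library 46. In 76 of 85 libraries it was the most counted row, in 57 of 58 of set A and in 19 of 27 of set B. Set A had a median of 24.3% (range 17.1 to 33.6) and set B of 14.6% (range 4.33 to 23.6), so the sets overlapped at the upper end of B. The same libraries, 18 and 46, held the extremes of both miR-1 rows.

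The main miR-133a strand, mmu-miR-133a-3p, held 47040 counts or 4.12% and was the fourth row overall. Its extremes lay in the same 2 libraries as those of the miR-1 rows, in the reverse order. The strand ran from 1.54% in library 46 (1.38 to 1.73) over a median of 3.29% to 14.2% in library 18 (13.5 to 14.97). It ranked 7 by pooled counts in set A, with a median of 2.86% (range 1.54 to 6.73), and 3 in set B, with a median of 7.17% (range 4.63 to 14.2). In set A no library had it as the most counted row, and in set B 3 did. The set ranges met through library 14, which held the highest share of A on 98 counts of the strand.

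The other miR-133 rows were scarce. The strand mmu-miR-133b-3p had 1675 counts, with a lowest share of 0.0418% in library 38, a median of 0.132% and a highest of 0.618% in library 14. That highest value rested on 9 counts, with an interval of 0.325 to 1.17%. Its medians were 0.112% in set A and 0.228% in set B. The opposite arm of miR-133a, mmu-miR-133a-5p, had 745 counts over the 85 hearts, with 1 to 34 in a library, and its median share was 0.0652% in A and 0.0546% in B. The order of the levels by pooled counts was thus miR-1b-5p, miR-1a-3p, miR-133a-3p, miR-133b-3p and miR-133a-5p, and it was the same within each set.

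**Figure D1:**
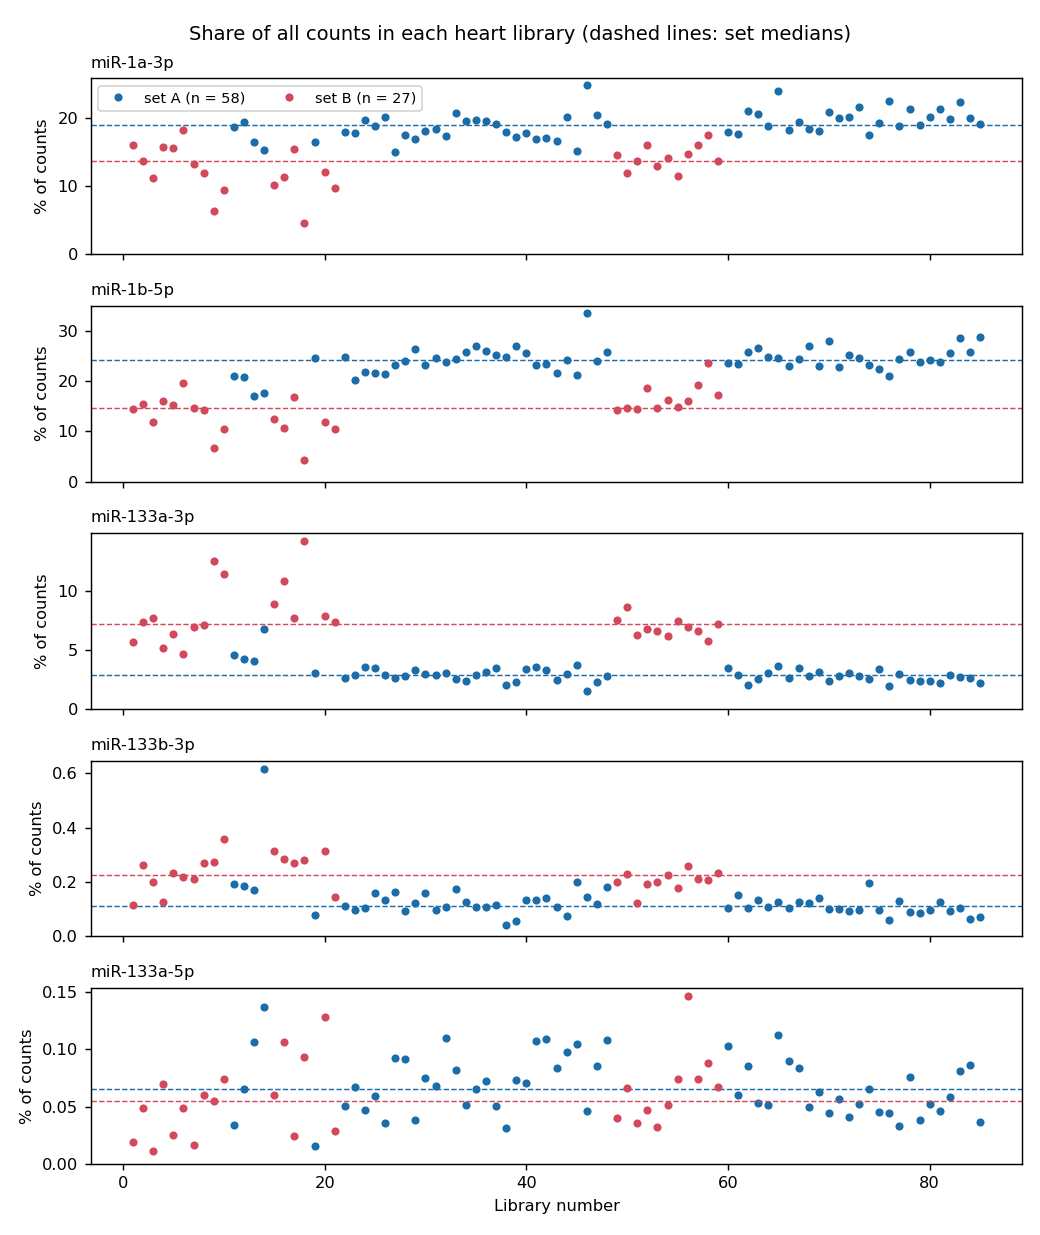
Share of all counts (y axis, percent, linear from 0) of each of the 5 members against library number (x axis), with 1 point per heart, blue for set A (n = 58) and red for set B (n = 27), and dashed lines at the set medians. The red points lie lower for the miR-1 rows and higher for miR-133a-3p and miR-133b-3p, while for miR-133a-5p the medians of 0.0652% and 0.0546% lie close together.

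The arms of each precursor were counted very unequally. For miR-133a the 5p strand took 1.56% of both arms (95% Wilson interval 1.45 to 1.67), 2.30% in set A (2.12 to 2.49) and 0.771% in set B (0.666 to 0.892). For miR-133b the 5p strand had 0 of 1675 counts, which allows a share of up to 0.179%. For miR-1a the 2 5p rows took 0.0835% of all miR-1a counts (0.0718 to 0.0970). Of these 169 counts, 148 were in the row of mmu-miR-1a-1-5p, 87.6% (81.8 to 91.7), and the other 21 were in mmu-miR-1a-2-5p. The 3p arm of miR-1b had 8 counts beside 251291 of the 5p arm. Intervals and limits cover counting error only.

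Among paralogs, miR-206-3p, the skeletal muscle miRNA made beside miR-133b, had 1 count in the 85 libraries, while miR-206-5p and miR-133c had 0 of all counts, which allows a share of up to 0.000263% each. The other heart muscle miRNAs, miR-208a-3p and miR-499-5p, which are encoded in introns of myosin genes, were counted in every library. Their median shares were 0.823% in A and 0.151% in B for miR-208a-3p, with no overlap of the sets, and 0.517% and 0.343% for miR-499-5p. Both were among the 47 non-members from which the sets were built, so these set differences are not independent of the sets.

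The ratio of miR-133a-3p to miR-1a-3p compares strands of shared transcripts and needs no normalization (0.5 was added to each count). In set A it was lowest at 0.0625 in library 46 (95% interval 0.0555 to 0.0701), had a median of 0.151 and was highest at 0.441 in library 14 (0.347 to 0.557). In set B it ran from 0.254 in library 6 (0.227 to 0.284) over a median of 0.523 to 3.16 in library 18 (2.82 to 3.55). Of all 85 hearts, 3 had more miR-133a-3p than miR-1a-3p counts, library 9 at a ratio of 1.97, library 10 at 1.22 and library 18. All 3 belonged to set B, and the sets overlapped through library 14 of A, the 1 library of A within the range of B. Against both miR-1 rows together, only library 18 kept more miR-133a-3p counts (1216, with 384 of miR-1a-3p and 370 of miR-1b-5p). Library 9 had 1372 with 695 and 733, and library 10 had 767 with 627 and 710.

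Spread between hearts exceeded counting error. The SD of the log2 ratio was 0.42 in A and 0.78 in B, where counting alone gives 0.084 and 0.068, and a chi-square test of homogeneity gave 25.4 and 132.5 per degree of freedom, where counting error alone gives about 1. Without the highest and the lowest library of each set the SDs were 0.33 and 0.60. With all libraries, among the 1275 pairs of the 51 filtered miRNAs, the SD ranked 868 from the largest in A, under the median of 0.49. In B it ranked 223, above the median of 0.55. Among the 45 pairs of the 10 most counted rows it ranked 8 in A and 2 in B. Between the sets the mean log2 ratio differed by 1.97, 3.904-fold higher in B (adjusted p = 1e-05, two-sided permutation test, the smallest that 100000 resamples give). The difference was 2.17 with set B libraries 1 to 21 alone and 1.67 with libraries 49 to 59 alone. Within B, libraries 1 to 21 had a median of 0.626 (n = 16) and libraries 49 to 59 of 0.470 (n = 11). The sets are a split of these same libraries by their other miRNAs, and ratios of other pairs were not tested between them. The p-values for set differences, here and for the ratios below, thus have no background to be read against. The sets also stood apart in other miRNAs. Across the 51 that passed the filter, the log2 CPM difference of B from A ran from -3.19 to 1.64 with a median of 0.19, and 5 miRNAs, none of them a member, did not overlap. These 5 were among the 47 non-members from which the sets were built, so their separation is not independent of the sets.

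**Figure D2:**
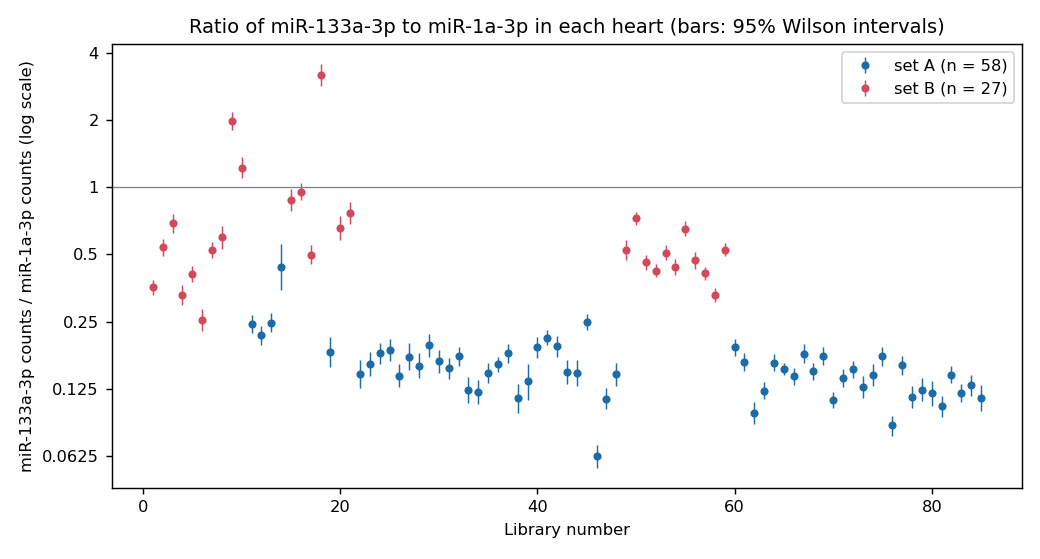
Ratio of miR-133a-3p counts to miR-1a-3p counts (y axis, log scale) against library number (x axis), with 1 point per heart, 95% Wilson intervals as bars, blue for set A and red for set B. Set A lies around its median of 0.151 and set B around 0.523, with libraries 9, 10 and 18 above the line at 1.

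On the log2 CPM scale after TMM normalization (CPM scales counts to a common library total), the difference of B from A was -0.85 for miR-1a-3p, -1.06 for miR-1b-5p, 1.12 for miR-133a-3p, 0.60 for miR-133b-3p and -0.42 for miR-133a-5p, against the median of 0.19 over all 51. The miR-133a-5p difference was not tested on its own and rested on a median of 9 counts per library in A and 5 in B. All 5 signs were the same with library totals alone, DESeq2 size factors or non-member counts as the scale, which gave 1.40, 1.02 and 1.10 for miR-133a-3p and -0.21, -0.50 and -0.43 for miR-133a-5p. CPM without TMM moved the median of all 51 miRNAs to 0.45.

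Within miR-133, the ratio of miR-133b-3p to miR-133a-3p varied little beyond counting error. Set A ran from 0.0231 over a median of 0.0405 to 0.0964, and set B from 0.0201 over 0.0313 to 0.0486. The SD of the log2 ratio was 0.43 in A and 0.35 in B, and counting alone gives 0.39 and 0.31. The chi-square per degree of freedom was 1.39 in A (p = 0.026) and 1.22 in B (p = 0.21), so at this depth variation beyond counting was not detectable in B. The sets overlapped widely, with a mean lower by 0.48 on the log2 scale in B (adjusted p = 1e-05, permutation test).

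The ratio of miR-133a-5p to miR-133a-3p, the arms of the miR-133a precursors, had a median of 0.0237 in A (range 0.00763 to 0.0432) and 0.00729 in B (range 0.00217 to 0.0218). Both lowest values rested on 1 count of the 5p strand, in library 19 of A and library 3 of B, under the limit of 3 counts. In A its spread was near counting error (1.11 per degree of freedom, p = 0.27), and in B it was above it (2.01, p = 0.0016). The difference between the sets, -1.64 on the log2 scale or 3.13-fold higher in A, passed the permutation test (adjusted p = 1e-05). It was -1.86 with set B libraries 1 to 21 alone and -1.33 with 49 to 59 alone.

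The rows of miR-1b-5p and miR-1a-3p kept a narrow ratio. It ran from 0.942 over 1.29 to 1.58 in A and from 0.904 over 1.09 to 1.35 in B, and 78 of 85 libraries had more counts in the miR-1b-5p row. Its SD on the log2 scale was 0.16 in A and 0.15 in B, the smallest of the 45 pairs among the 10 most counted rows in each set. Among the 1275 pairs of all 51 filtered miRNAs it was second to miR-199a-3p with miR-199b-3p, a pair of rows with one identical mature sequence, at SDs of 0.031 and 0.027. The SD still exceeded the 0.042 and 0.059 that counting gives (17.3 and 9.13 per degree of freedom). Pairs of rows on opposite strands of the same bases, taken where RefSeq entries allowed, had larger SDs. MiR-126a-3p with miR-126b-5p had a pooled ratio of 58.2 and SDs of 0.44 in A and 0.67 in B. MiR-24-3p with miR-3074-5p had a pooled ratio of 5.76 and SDs of 0.44 and 0.47. Their scarcer rows held 1131 and 989 counts over the 85 libraries, so counting error weighs more there. The part of counting in these SDs was not computed, so they cannot be compared directly with those of the miR-1 rows. The ratio of miR-1b-5p to miR-1a-3p differed between the sets by -0.21 (adjusted p = 1e-05, permutation test), by -0.27 with set B libraries 1 to 21 alone and by -0.12 with 49 to 59 alone (adjusted p = 0.0149).

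**Figure D3:**
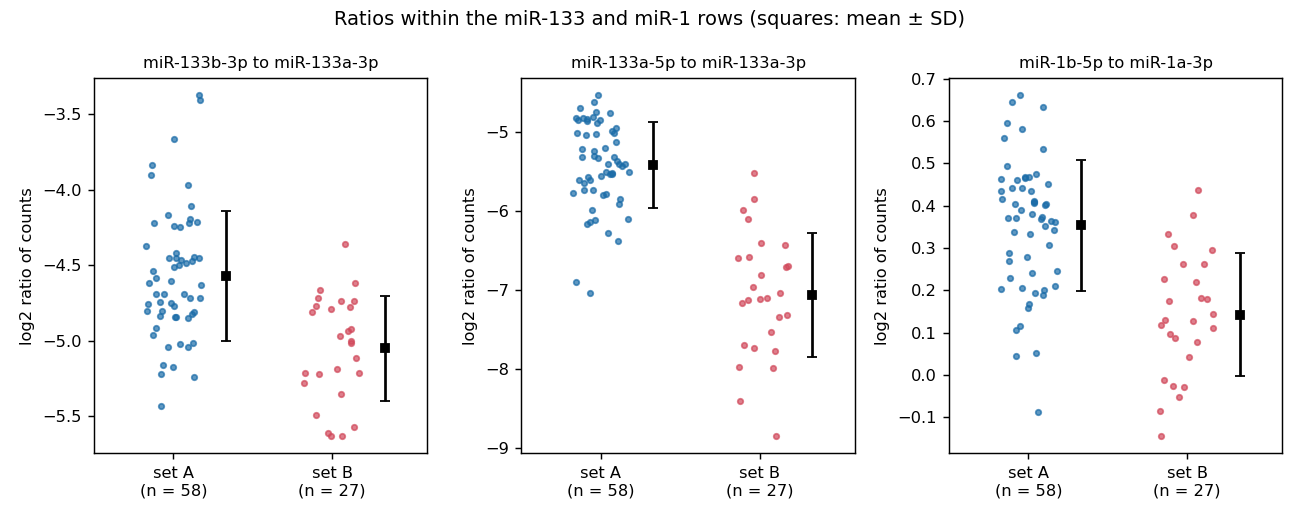
Log2 ratio of counts (y axes) in each library of set A (blue) and set B (red) for 3 pairs of members, with points spread sideways for visibility and black squares with bars for mean ± SD. The sets overlap in all 3, with mean differences of -0.48, -1.64 and -0.21 from left to right.

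The members did not all move together from heart to heart. On log2 CPM, miR-1a-3p and miR-1b-5p were positively related in both sets (A: r = 0.82, rho = 0.76; B: r = 0.95, rho = 0.84; adjusted p = 6.67e-05 for both r, permutation tests over 20 relations). Leaving out libraries 46 and 14 of A and 18 and 9 of B, the farthest from the median miR-1a-3p level, r was 0.74 and 0.89. In contrast, miR-133a-3p was inversely related to miR-1a-3p in set B (r = -0.80, adjusted p = 6.67e-05; rho = -0.66, adjusted p = 0.0013), and r was -0.59 without libraries 18 and 9 (adjusted p = 0.00905). In set A the inverse relation (r = -0.34, adjusted p = 0.0244; rho = -0.23, adjusted p = 0.153) rested on libraries 46 and 14, without which r was -0.11 (adjusted p = 0.573). Scaled to the non-member counts, which leaves the members out of the total, r was -0.24 in A (adjusted p = 0.124) and -0.71 in B (adjusted p = 0.00025).

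The relation of miR-1b-5p with miR-133a-3p was also inverse, with r = -0.46 in A (adjusted p = 0.00137) and r = -0.77 in B (adjusted p = 0.0001; rho = -0.52, adjusted p = 0.0242; r = -0.53 without libraries 18 and 9, adjusted p = 0.0307). In A the call was lost without libraries 46 and 14 (r = -0.24, adjusted p = 0.182), by rank (rho = -0.29, adjusted p = 0.0743) and by biweight midcorrelation (adjusted p = 0.0556). The miR-133 guide strands were positively related, with r = 0.51 in A (adjusted p = 0.00044) and 0.63 in B (adjusted p = 0.00197) for miR-133a-3p with miR-133b-3p. In A this rested on libraries 14 and 12 (0.30 without them, adjusted p = 0.0726; rho = 0.28, adjusted p = 0.0767), and in B r was 0.61 without libraries 18 and 9. The arms of miR-133a were not related past the threshold, at r = 0.17 in A and 0.29 in B (adjusted p = 0.245 and 0.19), with a median of 9 and 5 counts of the 5p strand per library.

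**Figure D4:**
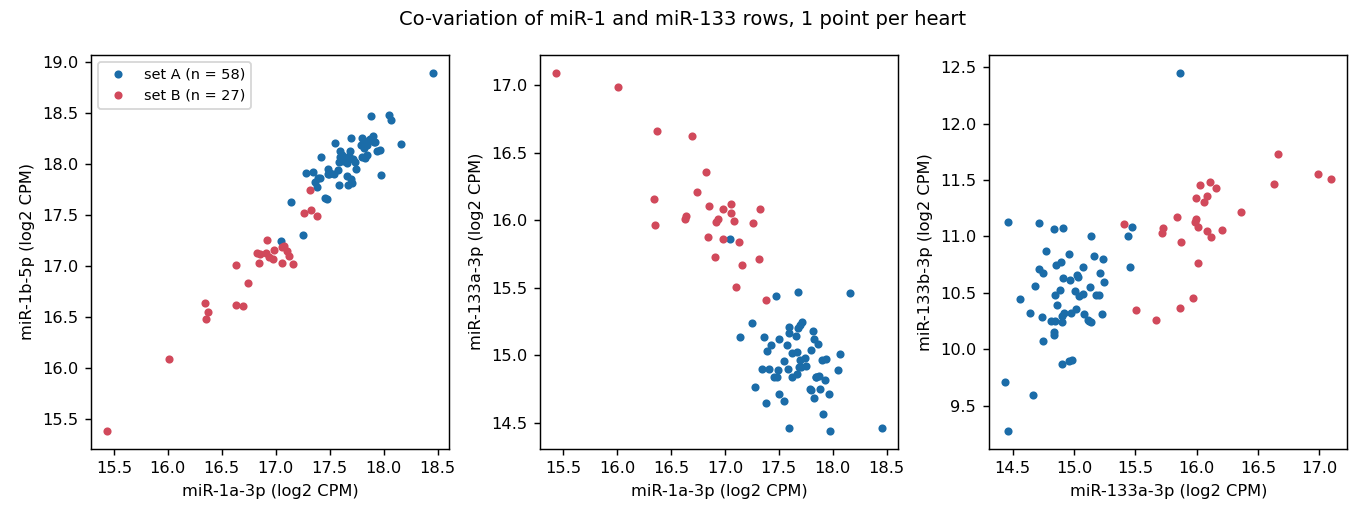
Log2 CPM (TMM) of pairs of members, 1 point per heart, blue for set A and red for set B: miR-1b-5p against miR-1a-3p, miR-133a-3p against miR-1a-3p, and miR-133b-3p against miR-133a-3p. Within set B, r is 0.95, -0.80 and 0.63 from left to right.

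Of the 47 non-members, those with the highest mean r over both sets were miR-126a-3p (0.53 in A, 0.69 in B) and miR-30e-5p (0.57 and 0.62) for miR-1a-3p, and miR-30e-5p (0.55 and 0.69) and miR-126a-3p (0.47 and 0.75) for miR-1b-5p. For miR-133a-3p they were miR-125a-5p (0.48 and 0.85) and miR-24-3p (0.59 and 0.72), and for miR-133b-3p let-7b-5p (0.42 and 0.34) and miR-30d-5p (0.17 and 0.48). The miR-1 rows and miR-133a-3p had no such neighbour in common. MiR-499-5p, a heart muscle miRNA, had r of 0.25 and 0.59 with miR-1a-3p and 0.09 and -0.56 with miR-133a-3p. These correlations share libraries, depth and the common total, and are given as a description over 58 and 27 libraries.

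The ratio of miR-133a-3p to miR-1a-3p also followed the score that defined the sets within each of them, a score that used no member. Toward the side of set B the ratio was higher, with r = 0.70 in A (rho = 0.67) and 0.81 in B (rho = 0.81), and 0.59 and 0.84 without the 2 farthest libraries (adjusted p = 4e-05 in each case, permutation tests over 8 relations, added after the data were seen). The other 3 ratios were lower toward that side in B, with r of -0.49 for miR-133b-3p to miR-133a-3p (adjusted p = 0.019), -0.49 for miR-133a-5p to miR-133a-3p (adjusted p = 0.019) and -0.47 for miR-1b-5p to miR-1a-3p (adjusted p = 0.0209; 0.0522 without libraries 9 and 59), and in A their r lay between -0.07 and 0.05 and none passed the threshold. By rank, only miR-133a-5p to miR-133a-3p passed among these 3 in B (adjusted p = 0.0178). The score is a measure of many miRNAs at once, and what moved it was not tested. The ratio was lower in later libraries of set A (r = -0.51, rho = -0.56, adjusted p = 0.0008 and 0.00064, over 16 relations) and -0.50 without the 2 farthest; in B r was -0.21 (adjusted p = 0.532). With the log2 total of the library, r was -0.42 in A (adjusted p = 0.0249), -0.19 without libraries 14 and 39 (adjusted p = 0.414), and -0.34 in B (adjusted p = 0.208).

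Over all 85 libraries, edgeR's quasi-likelihood test called a trend with library number for 43 of 51 filtered miRNAs, 84.3%, and all 4 members that passed the filter were among them, a share that is close to this background. Per 10 libraries, miR-1a-3p rose by 0.11 (SE 0.018, adjusted p = 3.33e-07) and miR-1b-5p by 0.13 (SE 0.021, adjusted p = 3.33e-07) on the log2 scale, while miR-133a-3p fell by 0.13 (SE 0.024, adjusted p = 2.17e-06) and miR-133b-3p fell by 0.094 (SE 0.022, adjusted p = 6.41e-05). With the set as a covariate, edgeR called 29 of 51, 56.9%. Of the members, 3 were still called, with slopes of 0.053 for miR-1a-3p, 0.062 for miR-1b-5p and -0.036 for miR-133a-3p (adjusted p = 0.0268), and miR-133b-3p was not, at -0.044 (adjusted p = 0.054). Library number is a number in the labels, and what it orders is not given there.

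Marker miRNAs of the cell types a heart sample can hold were summed in each library and set beside the ratio of miR-133a-3p to miR-1a-3p, in permutation tests over 14 relations. The filter on low counts kept 1 of 4 leukocyte, 1 of 3 fibroblast, 2 of 3 cardiomyocyte and 1 of 2 erythroid miRNAs. A sum can thus be mostly 1 row, as for miR-199a-3p with 9607 of the 10609 fibroblast counts. The 1 leukocyte miRNA kept, miR-142a-3p, had a log2 CPM difference of B from A of -3.19, the lowest of the 51 that passed the filter. The leukocyte sum thus does not show how the other members of its list moved. The leukocyte and fibroblast lists were related to the ratio in set A under every alternative run. The 4 leukocyte miRNAs ran from 0.686 to 4.204% in A and from 0.349 to 1.03% in B, with r = -0.56 in A (adjusted p = 0.00014) and 0.12 in B (adjusted p = 0.639). The 3 fibroblast miRNAs ran from 0.436 to 1.42% in A and from 1.01 to 2.03% in B, with r = 0.41 in A (adjusted p = 0.004) and 0.12 in B (adjusted p = 0.639).

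The summed share of the 3 cardiomyocyte miRNAs, all counted, was 0.680 to 2.50% in A (median 1.38) and 0.182 to 1.02% in B (median 0.514). Their sum was lower where the ratio was higher in set B, at r = -0.63 (adjusted p = 0.00185), and at -0.50 without libraries 9 and 58 (adjusted p = 0.031). In A, r = -0.29 passed the threshold (adjusted p = 0.0401) but rho of -0.25 did not (adjusted p = 0.0981). Neither did r without libraries 46 and 82 (-0.22, adjusted p = 0.179), scaled to non-member counts (-0.22, adjusted p = 0.125) or with CPM without TMM (-0.077, adjusted p = 0.633). The endothelial pair, miR-126a-3p and miR-126a-5p, ran from 5.27 to 8.50% in A and from 3.73 to 7.12% in B. In B its r was -0.74 (adjusted p = 0.00056), and -0.44 without libraries 18 and 9 (adjusted p = 0.0561). Scaled to non-member counts it was -0.89 (adjusted p = 0.00014). In A its r of -0.46 (adjusted p = 0.00135) was -0.26 scaled to non-member counts (adjusted p = 0.082) and turned to 0.22 with CPM without TMM (adjusted p = 0.22). Without libraries 79 and 12 it was -0.54 (adjusted p = 0.00042), and rho was -0.39 (adjusted p = 0.0136).

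Of the smooth muscle pair, miR-143-3p had a log2 CPM difference of B from A of -0.38 and miR-145a-5p of 1.32, and their summed share, most of it miR-143-3p, had medians of 4.01% in A and 4.05% in B. Its relation with the ratio depended on the scale. In A, r was -0.38 (adjusted p = 0.00756), -0.25 scaled to non-member counts (adjusted p = 0.0956) and 0.11 with CPM without TMM (adjusted p = 0.633). In B it was -0.14 (adjusted p = 0.639) and -0.55 scaled to non-member counts (adjusted p = 0.00991). The erythroid pair ran from 0.0615 to 1.01% in A and from 0.0387 to 0.429% in B. In A its r of -0.31 (adjusted p = 0.0336) did not pass the threshold under any of the 4 alternatives run, at r of -0.18 to -0.30, and in B r was -0.11 (adjusted p = 0.639). By rank the relation in A passed (rho = -0.31, adjusted p = 0.0355). The liver miRNA miR-122-5p had 399 counts, at most 0.514% of a library, and neither r passed the threshold. Skeletal muscle miR-206-3p had 1 count in all. The part of these cell types in the ratio was not tested.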

How the data were processed

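Small RNA was sequenced from 85 hearts of female HMDP mice. The authors extracted total RNA (miRNeasy), prepared libraries with the QIAseq kit for HiSeq sequencing, and used hisat2 (2.0.6) for mapping and htseq-count (0.13.5) for counting; the submitters' processing notes name mm10. The deposited values are raw counts per mature miRNA. Adapter trimming, the miRNA annotation, the strand setting and the use of molecular identifiers are not given in the sources used here; a wrong or absent strand setting changes which of 2 overlapping rows receives a read, and uncollapsed PCR copies make intervals too narrow. Each of the 85 columns carried the name of 1 labelled library.

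Counts were filtered with filterByExpr in edgeR 4.0.16 (R 4.3.3; minimum count of 10 in at least 63 libraries, minimum total 15), which kept 51 of 548 miRNAs, among them 4 members. MiR-133a-5p missed the filter, and its log2 CPM used the same TMM factors. Log2 CPM had a prior count of 2. Totals of 1457 to 30202 counts limit the precision of scarce rows. The trend with library number used glmQLFit and glmQLFTest on all filtered miRNAs. Ratios (0.5 added to each count) were compared with chi-square tests of homogeneity on the counts and with permutation tests (100000 resamples, numpy 2.4.6), with Benjamini-Hochberg adjustment within each family and a threshold of 0.05. The sets come from 2-means in scikit-learn 1.9.0 on the first component of non-members (scaled to non-member counts). Other tools were scipy 1.17.1, pandas 2.3.3, matplotlib 3.10.9 and Python 3.11.15. The scripts were tested on simulated data. With 1 library per heart and no replicates, the permutation and trend p-values rest on spread between libraries, in which heart and library preparation cannot be told apart. The chi-square p-values measure departure from counting error. Loci are from GENCODE M21 (GRCm38, which is mm10).

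Members, lists and tests were chosen with earlier results of these data known. Named miRNAs are the members, other rows of their precursors and paralogs, miR-208a-3p, miR-499-5p, the marker lists, and for each filtered member the 2 non-members with the highest mean within-set r. The pairs of rows with identical sequences or on opposite strands, the component score relations and the alternatives on set B runs were chosen after their values were seen. Alternatives were DESeq2 1.42.0 size factors and Wald test, CPM without TMM, non-member counts, no filter, a prior count of 0.5, biweight midcorrelation, the 84 libraries with at least 5000 counts, leaving out farthest libraries, other sets, and miR-1a as the sum of both miR-1 rows.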

Additional observations from a re-analysis of the deposited data

How the results depend on the processing

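The 4 differences between the sets kept their direction and passed the threshold under every alternative run, and the miR-133a-3p to miR-1a-3p difference ran from 1.67 to 2.17. Building the sets with the members moved 0 libraries, so that alternative could only repeat the main values. Ratios of other miRNA pairs were not put through this test, so the share of pairs that would pass is not known. With miR-1a as the sum of both miR-1 rows, the median ratio of miR-133a-3p to miR-1a was 0.0668 in A and 0.249 in B. The relations among members past the threshold in set A, 4 of 10, became 8 with CPM without TMM, 1 with biweight midcorrelation and 1 without the 2 farthest libraries. Those with depth and library number in A, 2, became 1 without library 14 and 1 without the 2 farthest libraries, and the 1 in B (miR-1b-5p to miR-1a-3p with library number, r = 0.53, then 0.42) became 0. Those with marker lists in A, 6, became 3 with CPM without TMM and 3 scaled to non-member counts, and the 2 in B became 1 without the 2 farthest libraries. Without the filter the trend was called for 99 of 548 miRNAs instead of 43 of 51.

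Some r values changed sign, among them the set A relations of the main ratio with smooth muscle (-0.38) and endothelium (-0.46) that had passed the threshold. Without the 2 farthest libraries these were miR-1a-3p with miR-133a-5p in A (0.0063), miR-1b-5p with miR-133a-5p in B (0.088; 0.047 scaled to non-member counts, 0.079 with biweight midcorrelation), miR-133b-3p to miR-133a-3p with the total in A (0.055; 0.12 without library 14) and with the score in A (-0.18; -0.14 without library 14), miR-133a-5p to miR-133a-3p with the total in B (0.13), miR-1b-5p to miR-1a-3p with the score in A (-0.029), and the main ratio with smooth muscle (0.099) and liver (-0.29) in B. The main ratio with marker lists also changed sign with CPM without TMM in A (smooth muscle 0.11, endothelium 0.22) and scaled to non-member counts in B (fibroblast -0.36, leukocyte -0.18, liver -0.082). The cause was not tested. No paired analysis was possible because each library is a different heart of 1 group. Depth limits miR-133a-5p and miR-133b-3p most, at medians of 8 and 18 counts per library.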
